A study of Mus musculus with 8 samples.

Results

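The costimulatory receptors of T cells were followed as 10 transcripts, taken from the expression table by gene symbol: *Tnfrsf9* (4-1BB), *Tnfrsf4* (OX40), *Tnfrsf18* (GITR), *Tnfrsf8* (CD30), *Tnfrsf1b* (TNFR2), *Cd27*, *Cd28*, *Icos*, *Cd226* and *Cd40lg* (CD40L). They are 10 of the 22520 genes and assembled transcripts listed, and each symbol was found. All libraries came from splenic CD8+ T cells of wild-type mice that were stimulated with anti-CD3 and anti-CD28 antibodies and IL-2 throughout the 6 days of culture, so an antibody to CD28 itself was present in both groups. In 4 cultures, 40 µM DADA (diisopropylamine dichloroacetate, an inhibitor of the pyruvate dehydrogenase kinases) was present from day 3, and in 4 cultures (labelled Ctrl) the solvent DMSO was added instead. RNA was taken on day 6. The study lists male C57BL/6J mice among its animals but ties none to these libraries. Whether the replicates of a group came from separate animals is not given in the sources used here, so the p-values measure only the spread between these samples, which may be technical.

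A T cell receives its first signal through the T cell receptor and a second one through costimulatory receptors. Those of the tumor necrosis factor receptor superfamily (4-1BB, OX40, GITR, CD30, TNFR2 and CD27) bind trimeric ligands, recruit TRAF adaptors and feed the NF-kB pathways that favor survival and memory. CD28 and ICOS belong to the immunoglobulin superfamily and recruit phosphoinositide 3-kinase, CD226 competes with inhibitory receptors for the same ligands, and CD40L is itself a ligand, made mostly by helper T cells, which licenses cells that carry CD40. 4-1BB and OX40 appear after activation, whereas CD27 and CD28 are already present on naive cells.

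Values are fragments scaled to the length of the transcript and the size of the library (FPKM). These values can be compared between genes only roughly, since they are scaled to length but may hold reads of overlapping or similar genes. They were compared as log2(FPKM + 1) with limma over 10666 genes, those at 1 FPKM or more in 4 or more of the 8 libraries, and a gene is said to rise or fall where its adjusted p-value is under 0.05. The log2 change given below is the DADA mean minus the DMSO mean of log2(FPKM + 1). On this scale the change of a gene with low FPKM is understated. The depth, estimated from the steps between low values, was roughly 13670000 to 16370000 fragments per library under DMSO and 15090000 to 18510000 under DADA. The T cell markers *Cd3d*, *Cd3e*, *Cd3g*, *Cd8a* and *Cd8b1* were abundant, with a summed level of 674 to 680 FPKM under DMSO and 776 to 805 FPKM under DADA, and all 5 rose, by 0.08 to 0.35 on the log2 scale, although the values of *Cd3g* overlapped between the groups. *Cd4* stayed at or below 0.411 FPKM, and the B cell gene *Pax5* was listed at 0 in all 8 libraries. The 5 B cell markers summed to 2.59 to 3.54 FPKM under DMSO and 2.36 to 3.09 FPKM under DADA, nearly all of it *Cd79b*. None of the 10 myeloid and dendritic cell markers reached 1 FPKM in any library, with sums of 0.0869 to 0.295 and 0.123 to 0.298 FPKM, and none of the 8 erythroid and platelet markers did, with sums of 0.512 to 0.876 and 0.467 to 0.630 FPKM. In bulk RNA, a change in the number of cells that carry a transcript and a change in the amount per cell cannot be told apart.

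DADA-treated cells carried more transcript of most costimulatory receptors, from *Icos* at 1.06-fold to *Tnfrsf8* at 4.26-fold, and less of *Cd226*. Of the 10, 9 passed the filter, each of them above 1 FPKM in all 8 libraries, and 8 of these rose while *Cd226* fell. Among all genes tested, 30.9% rose and 35.3% fell, 66.2% in all, so a change in either direction was common in these cells. The median log2 fold change was 0.52 over the 9 receptors and -0.02 over all genes tested. The members were chosen with earlier results of these data known, so this contrast is a description and not a test. The values of the 2 groups did not overlap for any of the 9 receptors past the filter, with 8 entirely higher and 1 entirely lower under DADA, against 28.4% and 32.2% of all genes tested (60.6% in all). *Cd40lg*, below the filter, was also lower in every DADA library, but the nearest libraries of the groups were both at 0.155 FPKM after rounding. For each of the 10 transcripts, the exact permutation test gave p = 0.0286, two-sided, the smallest that 4 against 4 libraries allow. The summed level of the 10 transcripts lay between 1130 and 1143 FPKM under DMSO and between 1832 and 1913 FPKM under DADA.

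**Figure D1:**
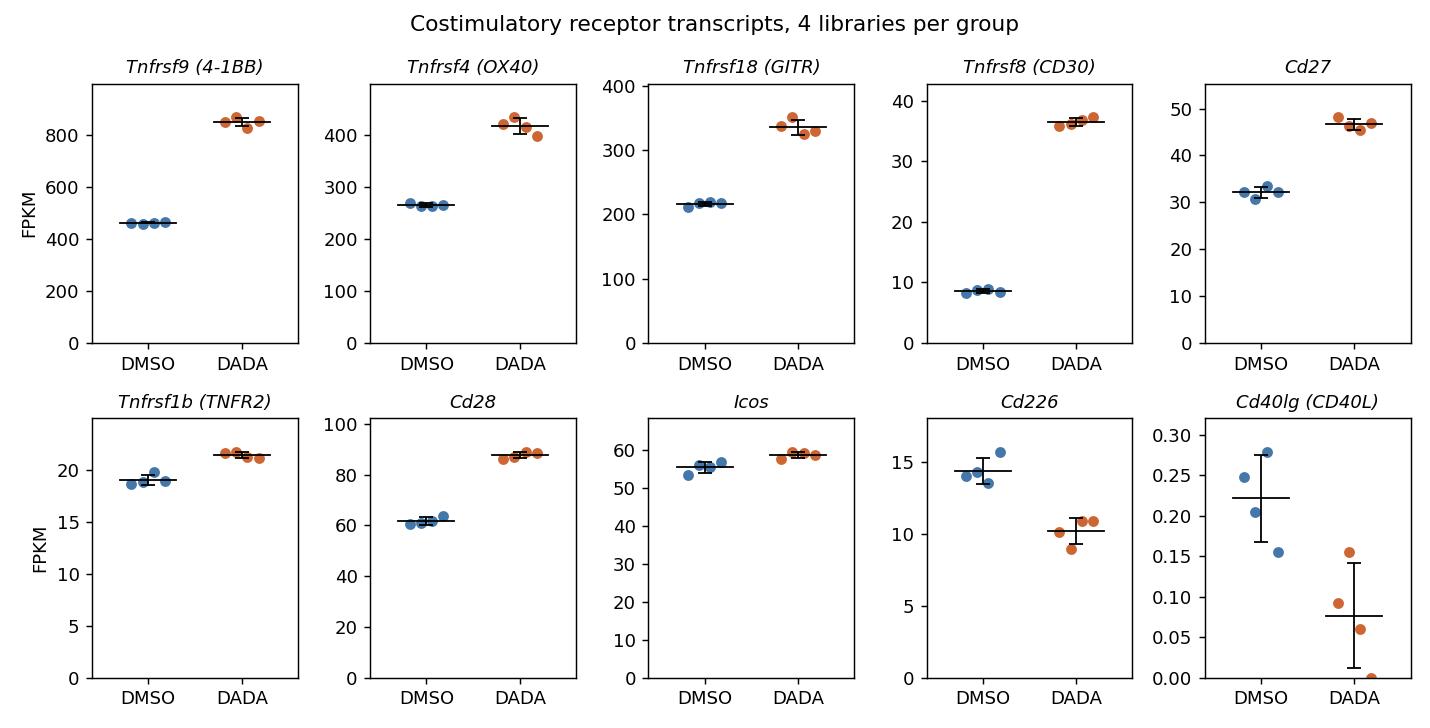
FPKM of the 10 costimulatory receptor transcripts in each library (points), with the group mean (line) and SD (bar), 4 DMSO and 4 DADA libraries per panel, each vertical axis starting at 0. The DADA points lie above all DMSO points in 8 panels and below them for *Cd226* and *Cd40lg*.

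*Tnfrsf8* (ENSMUSG00000028602), which encodes CD30, a receptor of activated lymphocytes that binds CD30 ligand, rose most. Its values were 8.19, 8.75, 8.94 and 8.44 FPKM in the 4 cultures given DMSO and 35.9, 36.2, 36.8 and 37.3 FPKM in the 4 given DADA. The lowest DADA library was thus far above the highest DMSO library, and the spread within either group was small. The means were 8.58 ± 0.329 and 36.5 ± 0.614 FPKM (SD, n = 4 each), a 4.26-fold ratio, and the log2 fold change was 1.97 (95% interval 1.90 to 2.04, limma, adjusted p = 3.31e-11). Among all genes tested, this change stood at percentile 99.2. *Tnfrsf8* was the least abundant of the 9 receptors past the filter under DMSO and stood above *Tnfrsf1b* and *Cd226* under DADA.

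*Tnfrsf9* (ENSMUSG00000028965), which encodes 4-1BB, was the most abundant receptor in both groups and lay at percentile 98.8 of the DMSO levels of all genes tested. Its values were 462, 459, 463 and 464 FPKM under DMSO and 851, 868, 828 and 853 FPKM under DADA. The DMSO libraries were nearly equal, with a coefficient of variation of 0.466%, and the DADA libraries stayed close together at a higher level. The log2 fold change was 0.88 (95% interval 0.83 to 0.92, limma, adjusted p = 2.23e-10), a 1.84-fold ratio of the means.

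Of the 6 members with a promoter window at hand, *Tnfrsf8* and *Tnfrsf9* held both motifs searched for NF-kB and AP-1 factors, *Tnfrsf9* only at its second start. Their sequences are shown for that reason, and a link to the changes was not tested. The windows are the 250 bases before an annotated start in RefSeq (GRCm38.p6). They are chr4:145315165-145315414 on the minus strand for *Tnfrsf8* and chr4:150927749-150927998 on the plus strand for the second start of *Tnfrsf9*, written 5′ to 3′, with motif matches in capitals:
Tnfrsf8: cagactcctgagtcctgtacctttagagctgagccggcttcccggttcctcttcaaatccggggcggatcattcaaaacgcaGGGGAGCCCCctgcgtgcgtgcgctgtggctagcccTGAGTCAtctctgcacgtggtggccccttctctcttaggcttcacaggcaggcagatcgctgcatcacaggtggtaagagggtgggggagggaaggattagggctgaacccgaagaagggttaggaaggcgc
Tnfrsf9: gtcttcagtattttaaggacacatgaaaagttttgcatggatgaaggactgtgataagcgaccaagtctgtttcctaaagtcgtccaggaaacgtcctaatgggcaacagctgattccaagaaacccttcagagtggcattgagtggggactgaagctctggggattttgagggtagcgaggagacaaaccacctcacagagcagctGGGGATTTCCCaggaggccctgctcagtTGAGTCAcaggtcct
In *Tnfrsf8*, a kappa-B match (GGGGAGCCCC) began 168 bases before the start and an AP-1 match (TGAGTCA) 132 bases before it. In *Tnfrsf9*, a pair of overlapping kappa-B matches (GGGGATTTCC and GGGATTTCCC) began 43 and 42 bases before the start, and an AP-1 match (TGAGTCA) 15 bases before it. RefSeq windows were at hand for 6 of the 10 members, 7 windows in all. *Tnfrsf1b* held an interferon-stimulated response element (TTTCGCTTTC) 10 bases before its start, and the other 4 windows (the first start of *Tnfrsf9*, *Tnfrsf4*, *Tnfrsf18* and *Cd27*) held none of the motifs. Searched on both strands of 32851 promoter windows of the same length, AP-1 (TGANTCA) was found in 6.75%, kappa-B in 3.90%, the interferon-stimulated response element (GAAANNGAAA) in 2.98%, and AP-1 together with kappa-B in 0.213%. The motifs were chosen after the values were seen, and a match describes letters, not binding.

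*Tnfrsf4* (ENSMUSG00000029075) and *Tnfrsf18* (ENSMUSG00000041954), which encode OX40 and GITR, lie next to each other on chromosome 4 and were the second and the third most abundant receptors. *Tnfrsf4* was at 270.1, 264, 263 and 265 FPKM under DMSO and at 421, 434, 417 and 398 FPKM under DADA, for a log2 change of 0.65 (95% interval 0.59 to 0.71, limma, adjusted p = 1.76e-08). *Tnfrsf18* was at 212, 217, 219 and 218 FPKM under DMSO and at 337, 351, 325 and 329.7 FPKM under DADA, for a log2 change of 0.63 (95% interval 0.57 to 0.69, limma, adjusted p = 1.98e-08). Both transcripts rose by nearly the same amount, 1.57-fold and 1.55-fold as ratios of the means, and both were highest in the second DADA library. Exons of *Tnfrsf18* overlap the antisense gene *Gm16008* in GENCODE M21, which is not a row of the table, so reads of this partner could be counted with *Tnfrsf18* if strand was not used.

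*Cd27* (ENSMUSG00000030336), a receptor of naive and memory T cells that binds CD70, was at 32.2, 30.7, 33.6 and 32.2 FPKM under DMSO and at 48.1, 46.2, 45.4 and 47.0 FPKM under DADA. An exon of *Cd27* overlaps the microRNA gene *Mir8113*, which is not a row of the table. Every DADA library was above every DMSO library, and the log2 fold change was 0.52 (95% interval 0.45 to 0.59, limma, adjusted p = 2.77e-07). *Tnfrsf1b* (ENSMUSG00000028599), the TNF receptor that signals without a death domain, moved little. It was at 18.6, 18.8, 19.7 and 18.9 FPKM under DMSO and at 21.6, 21.7, 21.3 and 21.2 FPKM under DADA, for a log2 change of 0.16 (95% interval 0.10 to 0.23, limma, adjusted p = 0.000548). *Tnfrsf1b* and *Tnfrsf8* are neighbours on chromosome 4, and their changes were the smallest and the largest among the 6 TNF receptor superfamily members.

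*Cd28* (ENSMUSG00000026012), the receptor of CD80 and CD86, was at 60.4, 60.8, 61.8 and 63.7 FPKM under DMSO and at 86.2, 87.0, 88.8 and 88.7 FPKM under DADA. The groups were clearly apart, at 61.7 ± 1.46 and 87.7 ± 1.31 FPKM (SD, n = 4 each), for a log2 change of 0.50 (95% interval 0.45 to 0.55, limma, adjusted p = 4.86e-08). *Icos* (ENSMUSG00000026009), its inducible relative, was at 53.5, 56.0, 55.5 and 56.8 FPKM under DMSO and at 57.7, 59.4, 59.1 and 58.7 FPKM under DADA. The highest DMSO library was just below the lowest DADA library. *Icos* had the smallest change of the 9 receptors past the filter, 0.08 on the log2 scale (95% interval 0.03 to 0.14, limma, adjusted p = 0.0138). The ratio of *Icos* to *Cd28* FPKM fell, from between 0.886 and 0.920 under DMSO to between 0.662 and 0.683 under DADA, a difference of -0.42 in log2(FPKM + 1) (exact permutation test, p = 0.0286, adjusted over 4 ratios 0.0381).

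The changes of *Icos* and *Tnfrsf1b* lay within the range of the 5 T cell markers given above (0.08 to 0.35), while those of *Tnfrsf8*, *Tnfrsf9*, *Tnfrsf4*, *Tnfrsf18*, *Cd27* and *Cd28* lay above it. The part of the markers in the result was not tested. Markers of cells that also carry OX40, GITR and ICOS were low in both groups. The regulatory T cell factor *Foxp3* was at 0.0426 to 0.103 FPKM under DMSO and at 0.187 to 0.268 FPKM under DADA. The 3 NK cell markers (*Ncr1*, *Klrb1c* and *Klra8*) together were at 0 to 0.0959 FPKM under DMSO and at 0.144 to 0.346 FPKM under DADA. In the fit without a filter, *Foxp3* and *Klrb1c* were higher under DADA, by 0.18 and 0.22 (limma, adjusted p = 0.000484 and 0.000507). *Ncr1* and *Klra8* did not pass the test. Of the CD4 T cell and regulatory T cell markers, 1 of 3 passed the filter, *Zbtb7b*, which fell by 0.11, and their sum was 16.1 to 17.2 FPKM under DMSO and 15.2 to 15.7 FPKM under DADA.

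*Cd226* (ENSMUSG00000034028), an activating receptor of CD8+ T cells and NK cells, went the other way. It was at 14.0, 14.2, 13.5 and 15.6 FPKM under DMSO and at 10.1, 8.93, 10.9 and 10.9 FPKM under DADA. All DADA libraries were below all DMSO libraries, and the second DADA library was the lowest. The means were 14.3 ± 0.924 and 10.2 ± 0.921 FPKM (SD, n = 4 each), and the log2 fold change was -0.46 (95% interval -0.60 to -0.31, limma, adjusted p = 0.000138), at percentile 7.62 of all genes tested. Its coefficient of variation, 6.44% under DMSO and 9.04% under DADA, was the largest of the 9 receptors past the filter, where the others lay between 0.466% and 3.83% under DMSO and between 1.23% and 3.56% under DADA.

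*Cd40lg* (ENSMUSG00000031132) was barely present. It was listed at 0.248, 0.204, 0.279 and 0.155 FPKM under DMSO and at 0.0923, 0.155, 0.0596 and 0 FPKM under DADA, which corresponds to about 2.82 to 4.76 fragments per DMSO library and 0 to 3.57 fragments per DADA library. The lowest DMSO library and the highest DADA library were nearly equal. In the fit without a filter, its log2 fold change was -0.18 (95% interval -0.29 to -0.07, limma, adjusted p = 0.0130). A pseudocount of 0.1 in place of 1 gave -0.93, so the size of this change depends on the pseudocount.

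The order of levels was the same in both groups for the 6 most abundant receptors, from *Tnfrsf9* through *Tnfrsf4*, *Tnfrsf18*, *Cd28* and *Icos* to *Cd27*. Under DMSO, *Tnfrsf1b*, *Cd226*, *Tnfrsf8* and *Cd40lg* followed, and under DADA, *Tnfrsf8*, *Tnfrsf1b*, *Cd226* and *Cd40lg*. The ranges of neighbours in this order overlapped in 0 pairs in either group.

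The binding partners of the receptors were followed as a list of 13 genes, most of them made by antigen-presenting cells and some by T cells themselves. Of these, 7 passed the filter, 4 rose and 2 fell, with a median log2 fold change of 0.30. The shares that rose and fell over all genes tested were 30.9% and 35.3%. *Tnfsf8* (ENSMUSG00000028362), the CD30 ligand, fell while its receptor rose: it was at 52.6, 53.7, 52.8 and 56.9 FPKM under DMSO and at 29.2, 28.8, 29.2 and 30.0 FPKM under DADA, for a log2 change of -0.86 (95% interval -0.93 to -0.79, limma, adjusted p = 5.19e-09). The transcript of the ligand was thus more abundant than that of the receptor under DMSO, and less abundant under DADA, where *Tnfrsf8* lay at 35.9 to 37.3 FPKM. *Tnfsf9* (ENSMUSG00000035678), the 4-1BB ligand, rose together with its receptor, from 1.72, 2.19, 2.16 and 2.35 FPKM to 5.80, 5.64, 5.51 and 4.76 FPKM, for a log2 change of 1.05 (95% interval 0.88 to 1.22, limma, adjusted p = 1.16e-06).

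*Pvr* (CD155, the ligand of CD226, TIGIT and CD96) rose from 10.4 ± 0.375 to 20.6 ± 0.743 FPKM (SD, n = 4 each), for a log2 change of 0.92 (limma, adjusted p = 1.63e-08). *Cd80*, a ligand of CD28 and CTLA-4, rose from between 18.8 and 22.5 FPKM to between 23.9 and 27.1 FPKM, for a log2 change of 0.30 (limma, adjusted p = 0.00135). Of the TNFR2 ligands, *Tnf* rose by 0.47 and *Lta* (lymphotoxin alpha) fell by 0.20 on the log2 scale. *Tnfsf4*, the OX40 ligand, was at 5.10 ± 0.747 and 4.27 ± 0.585 FPKM and did not pass the test (log2 fold change -0.21, 95% interval -0.43 to 0.01, limma, adjusted p = 0.0884), although it did with quantile normalization (-0.30, adjusted p = 0.0173) and without the third DADA library (-0.27, adjusted p = 0.0436).

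The other 6 partners stayed below the filter. *Nectin2*, which encodes a second ligand of CD226, had means of 0.353 and 0.984 FPKM, and *Cd70*, the CD27 ligand, had means of 0.975 and 0.513 FPKM, under DMSO and DADA respectively, with log2 fold changes in the fit without a filter of 0.55 and -0.38 (limma, adjusted p = 1.67e-05 and 0.0146). The groups of *Cd70* nearly touched, with 0.692 FPKM in the lowest DMSO library and 0.657 FPKM in the highest DADA library. Both transcripts stayed at or below 1.19 FPKM in every library, and a pseudocount of 0.1 gave 1.27 and -0.82. *Icosl*, *Cd86* and *Cd40* had means of 0.365, 0.702 and 0.0595 FPKM under DMSO and of 0.480, 0.529 and 0.0860 FPKM under DADA, none of them past the test, and *Tnfsf18*, the GITR ligand, was listed at 0 except for 0.0266 FPKM in 1 DADA library.

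**Figure D2:**
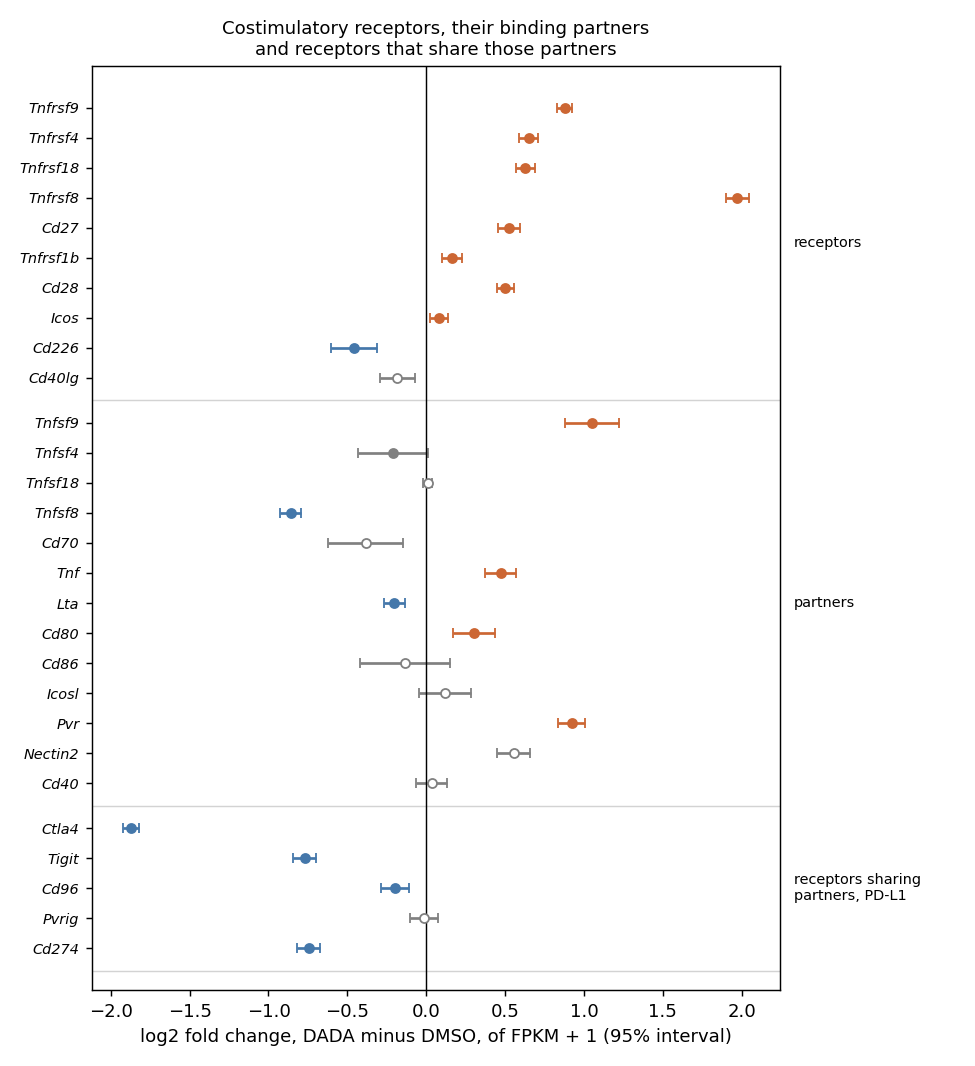
Log2 fold change of FPKM + 1, DADA minus DMSO, with its 95% interval, for the 10 receptors, 13 binding partners and 5 genes of receptors or ligands that share those partners. Orange points rose, blue points fell and grey points did not pass the test or were not tested with the filter (hollow points, from the fit without a filter); *Tnfrsf8* at 1.97 and *Ctla4* at -1.87 mark the ends.

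Other genes whose products share partners with CD28 or CD226 fell, *Ctla4* against the rise of *Cd28* and *Tigit* and *Cd96* in the same direction as *Cd226*. Of 5 such genes, 4 passed the filter and all 4 fell, where 35.3% of all genes tested fell. Their median log2 fold change was -0.76. *Tnfrsf1a* (TNFR1), which shares TNF and lymphotoxin alpha with TNFR2, was not on this list and rose by 0.22 (limma, adjusted p = 0.000328). *Ctla4* (ENSMUSG00000026011), which encodes the inhibitory receptor of CD80 and CD86 and lies between *Cd28* and *Icos* on chromosome 1, was at 899, 886, 874 and 888 FPKM under DMSO and at 246, 239, 235 and 246 FPKM under DADA. Its log2 fold change was -1.87 (95% interval -1.92 to -1.82, limma, adjusted p = 3.42e-12), while both of its neighbours rose. The ratio of *Cd28* to *Ctla4* FPKM was 0.0672 to 0.0717 under DMSO and 0.351 to 0.377 under DADA, a difference of 2.37 in log2(FPKM + 1) (exact permutation test, p = 0.0286, adjusted over 4 ratios 0.0381). *Ctla4* remained above *Cd28* in every library of both groups.

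The receptors of CD155 all fell. *Tigit* was at 102 ± 4.46 FPKM under DMSO and 59.5 ± 1.52 FPKM under DADA (SD, n = 4 each), for a log2 change of -0.77 (limma, adjusted p = 2.51e-08), and *Cd96* at 24.9 ± 1.37 and 21.6 ± 0.495 FPKM, for a log2 change of -0.20 (limma, adjusted p = 0.00139). The ratio of *Cd226* to *Tigit* was 0.133 to 0.157 under DMSO and 0.150 to 0.186 under DADA, so the groups overlapped, and the difference of 0.31 did not pass the exact permutation test (p = 0.0571, also after adjustment). Without the second DADA library, in which *Cd226* was lowest, the difference was 0.37 (exact permutation test, p = 0.0286). The ratio of *Cd226* to *Cd96* fell from between 0.570 and 0.583 to between 0.410 and 0.501, a difference of -0.26 (exact permutation test, p = 0.0286, adjusted 0.0381). *Cd274*, which encodes PD-L1, a partner of CD80 on the same cell, fell from 37.9 ± 1.42 to 22.2 ± 0.402 FPKM (log2 fold change -0.75, limma, adjusted p = 2.17e-08), and *Pvrig* stayed at or below 0.104 FPKM.

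**Figure D3:**
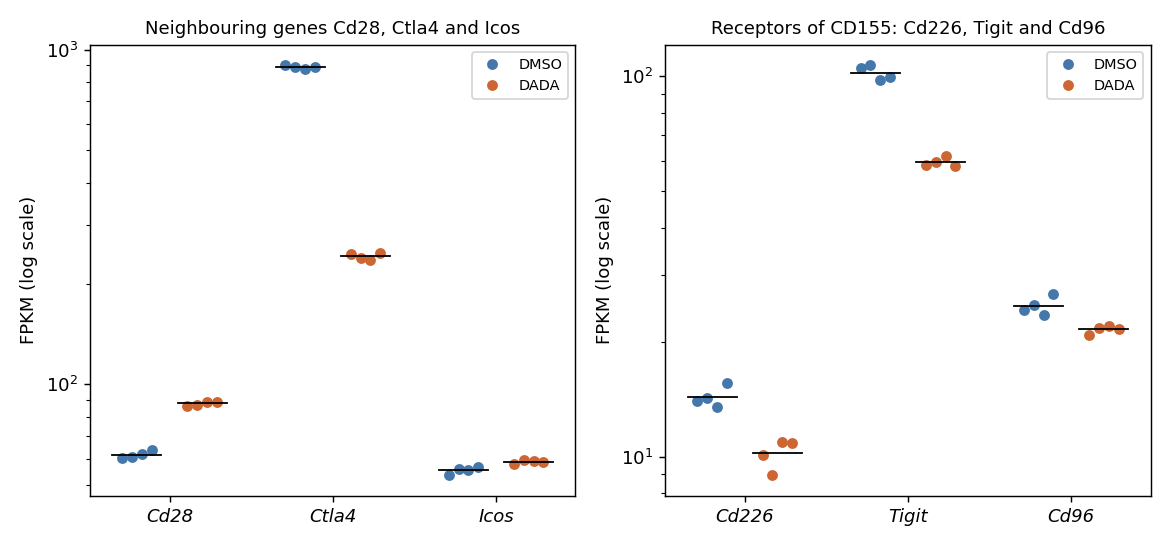
FPKM per library on a log axis for *Cd28*, *Ctla4* and *Icos* (left) and for *Cd226*, *Tigit* and *Cd96* (right), with a line at the group mean, 4 DMSO and 4 DADA libraries. *Ctla4* falls from 887 to 242 FPKM between neighbours that rise, and all receptors of CD155 are lower under DADA.

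Other genes of the TNF receptor superfamily served to set the 6 superfamily members among their relatives. Of 18 such genes, 11 passed the filter, 4 rose, 2 fell and 5 did not pass the test, with a median log2 fold change of 0.08. Over all genes tested, 30.9% rose and 35.3% fell. *Tnfrsf26* rose from 4.17 ± 0.191 to 8.60 ± 0.457 FPKM (log2 fold change 0.89, limma, adjusted p = 1.19e-07), and *Tnfrsf13b*, the TACI receptor of BAFF and APRIL, rose from 18.3 ± 1.04 to 25.8 ± 1.04 FPKM (0.47, adjusted p = 6.54e-06). *Tnfrsf23*, counted among the 4, rose from 0.343 to 1.89 FPKM, but passed the filter only through the DADA libraries. Its reads may also be shared with its close paralog *Tnfrsf22*, so its value is uncertain. Among the death receptors, *Tnfrsf21* (DR6) and *Tnfrsf10b* (the TRAIL receptor) fell, from 3.22 ± 0.174 to 1.37 ± 0.125 FPKM and from 11.4 ± 0.662 to 9.02 ± 0.426 FPKM, by 0.83 and 0.31 on the log2 scale. Other death receptors did not: *Tnfrsf1a* rose by 0.22, and *Fas* and *Tnfrsf25* did not pass the test (limma, adjusted p = 0.153 and 0.377).

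Below the TNF receptor superfamily members, TRAF adaptors, cIAP ubiquitin ligases and noncanonical NF-kB genes were listed as 14 genes, all past the filter. Of these, 7 rose and 3 fell (median log2 fold change 0.08), against 30.9% and 35.3% of all genes tested. *Tnfaip3*, which encodes A20, an inhibitor of NF-kB signaling that is itself an NF-kB target, rose from 25.8 ± 1.04 to 53.2 ± 0.85 FPKM, for a log2 change of 1.01 (limma, adjusted p = 2.08e-09). *Traf1*, an adaptor bound by 4-1BB, was at 88.0, 86.0, 85.8 and 84.1 FPKM under DMSO and at 166, 163, 162 and 163 FPKM under DADA, for a log2 change of 0.92 (95% interval 0.87 to 0.97, limma, adjusted p = 2.10e-10), close to the 0.88 of *Tnfrsf9*. *Birc3* (cIAP2) rose by 0.57. In the other direction, *Nfkb2*, which encodes the p100 precursor of the noncanonical pathway, fell from 139 ± 2.58 to 96.3 ± 2.19 FPKM (-0.52, limma, adjusted p = 3.53e-08), *Chuk* (IKK alpha) fell by 0.29, and *Siva1*, whose product binds CD27, fell from 30.4 ± 2.78 to 19.9 ± 1.09 FPKM (-0.58, limma, adjusted p = 1.74e-05) while *Cd27* rose.

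Of 18 genes that act below CD28 and ICOS, all passed the filter. Among them, 11 rose, 3 fell and 4 did not pass the test (median log2 fold change 0.16). By comparison, 30.9% of all genes tested rose and 35.3% fell. *Prkcq*, which encodes the protein kinase C theta recruited to CD28, rose from 31.6 ± 0.997 to 49.4 ± 1.10 FPKM (log2 fold change 0.63, limma, adjusted p = 4.26e-08). *Pik3cd*, the leukocyte phosphoinositide 3-kinase subunit, rose by 0.37. *Carmil2* (RLTPR), an adaptor of CD28, fell from 24.9 ± 0.675 to 16.7 ± 0.624 FPKM (-0.55, limma, adjusted p = 3.33e-07), and the kinase *Fyn* fell by 0.30.

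Roquin and Regnase proteins destabilize transcripts such as those of ICOS and OX40. Of the 4 Roquin and Regnase genes listed, 3 rose and none fell (median log2 fold change 0.31), against 30.9% and 35.3% of all genes tested. *Zc3h12d* (Regnase-4) was at 18.5, 19.1, 18.3 and 18.4 FPKM under DMSO and at 38.0, 35.7, 36.0 and 36.7 FPKM under DADA, for a log2 change of 0.94 (95% interval 0.88 to 1.01, limma, adjusted p = 1.75e-09). *Zc3h12a* (Regnase-1) rose by 0.44 and *Rc3h2* (Roquin-2) by 0.19, while *Rc3h1* (Roquin-1) was at 6.70 ± 0.294 and 7.03 ± 0.0698 FPKM and did not pass the test (log2 fold change 0.06, limma, adjusted p = 0.203).

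**Figure D4:**
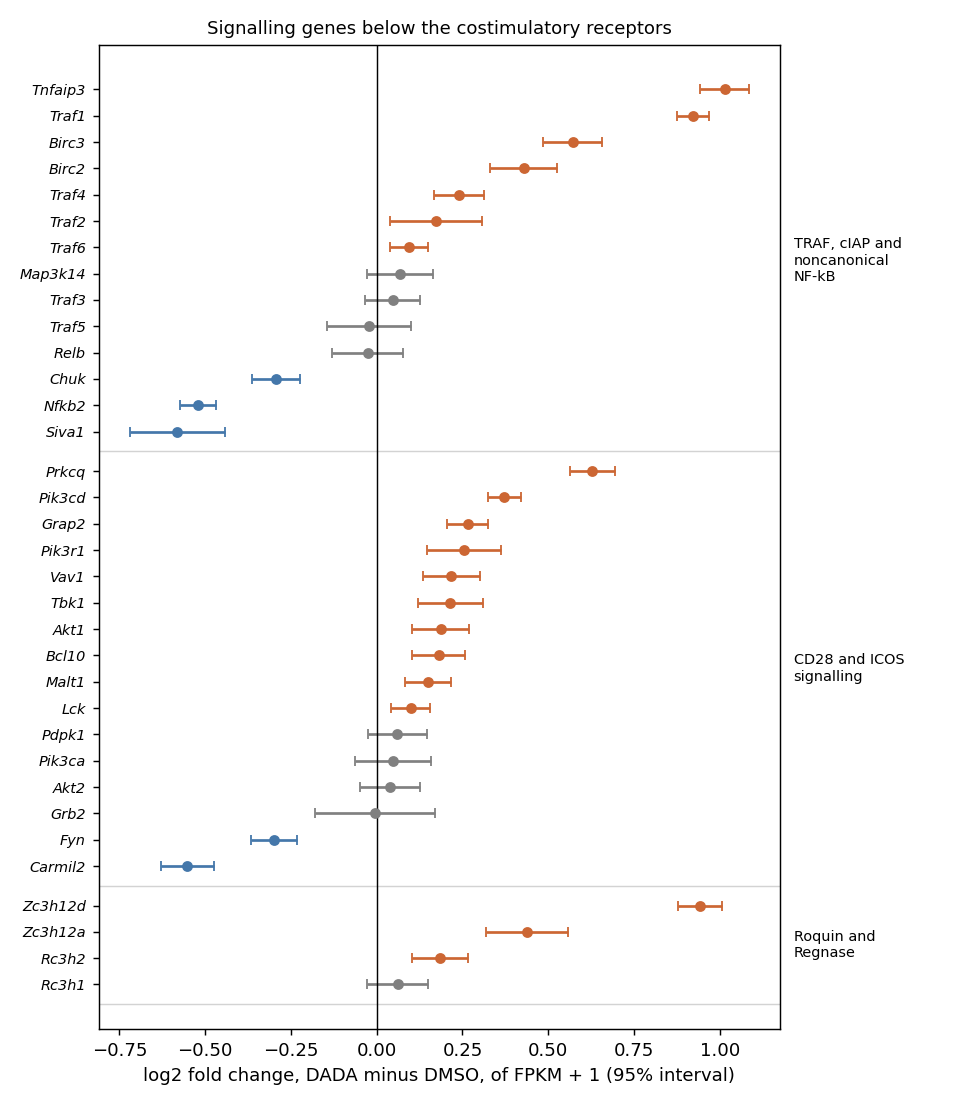
Log2 fold change of FPKM + 1, DADA minus DMSO, with its 95% interval, for 14 TRAF, cIAP and noncanonical NF-kB genes, 16 of the 18 genes below CD28 and ICOS and 4 Roquin and Regnase genes, each sorted by size. Orange points rose, from 0.09 for *Traf6* to 1.01 for *Tnfaip3*, blue points fell, and grey points did not pass the test.

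For the receptors with the largest rise and the largest fall, the genes with the most similar pattern across the 8 libraries were found by the root mean square difference of log2(FPKM + 1), each gene centred on its mean. Nearest to *Tnfrsf8* were *Ccng2* (0.0316), *Helz2* (0.0474) and *Ero1a* (0.0524), whose log2 fold changes were 1.92, 2.01 and 2.03. *Ero1a* was at 110 ± 2.11 FPKM under DMSO and 452 ± 4.11 FPKM under DADA, and *Ccng2* at 10.4 ± 0.448 and 41.9 ± 0.348 FPKM. Nearest to *Cd226* were *Hyi* (0.0508), *Mdm4* (0.0549) and *Ceacam15* (0.0569), with log2 fold changes of -0.50, -0.43 and -0.45. *Ceacam15* passed the filter only through the DMSO libraries (1.22 to 1.56 FPKM, against 0.621 to 0.791 FPKM under DADA), and its log2 change was -0.83 with a pseudocount of 0.1, so its likeness to *Cd226* depends on the pseudocount. In all 3, as in *Cd226*, the second DADA library was the lowest of the 8. The genes were picked for their likeness over these same libraries, so a shared lowest library and similar log2 changes follow from the choice.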

How the data were processed

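RNA of 8 cultures of mouse splenic CD8+ T cells was sequenced as paired reads, and the authors deposited 1 FPKM value per gene and library, which were used as they are. The submitters' processing notes name, without roles, CASAVA 1.8.2, FastQC 0.11.9, HISAT2 2.0.5, StringTie 1.3.3, Picard 1.41, SAMtools 0.1.18 and the builds GRCm39 and GRCh38. The labels and the methods name different library kits, so whether strand was used is unclear. Groups follow the titles, and the labels' genotype entry follows the treatment. The members and gene lists were chosen with earlier results of these data known.

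Genes at 1 FPKM or more in at least 4 libraries (10666 of 22520) were tested as log2(FPKM + 1) with limma 3.58.1 in R 4.3.3 (treatment as the single term, moderated variances with an intensity trend, Benjamini-Hochberg adjustment over all genes tested, threshold 0.05), a fit tested on simulated data. Single values were tested by exact permutation over 70 assignments. Named were all members and all listed partners, competing receptors and Roquin and Regnase genes. Also named were the 3 largest called changes in each direction of the other lists, and 3 nearest patterns. A few genes under this rule are not reported here, while list counts keep them. *Foxp3*, *Zbtb7b*, *Cd79b*, *Tnfrsf1a*, *Fas*, *Tnfrsf25*, the NK cell markers and the genes under other observations were named after their values were seen. Neighbouring genes and promoters came from RefSeq (GRCm38.p6), and overlapping exons from GENCODE M21. Depth was estimated from low values of 4431 genes with a single transcript. Of these values, 37.4% to 44.0% lay near a whole fragment, where chance gives 20% at a fixed depth. The depth was picked for a high score among many, so chance lies above 20% and the estimate is rough. For this reason no count test was run. Alternatives were a pseudocount of 0.1, no filter, a mean of at least 5 FPKM, TPM rescaling, median-ratio scaling, quantile normalization, eBayes without trend, a replicate block, each library left out and, added after the data were seen, leaving out the transcripts named by an assembler.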

Additional observations from a re-analysis of the deposited data

Results flagged for a closer look

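In 4 of the 109 groups of 4 libraries examined for the named genes, 1 library stood apart from the other 3, where chance flags about 1 in 20 (5.45 groups). The gap to the nearest library, as a share of the whole range of the group, was 1 for *Tnfsf18* in DADA replicate 2, the only library with a value above 0. It was 0.874 for *Lta* in DADA replicate 1, at 79.2 FPKM against 84.1 to 84.8 FPKM in the others. It was 0.930 for *Helz2* in Ctrl replicate 3, at 7.72 FPKM against 7.29 to 7.32 FPKM, and 0.895 for *Ero1a* in DADA replicate 4, at 458 FPKM against 449.7 to 451 FPKM. None of the 10 costimulatory receptors had such a library.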

How the results depend on the processing

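All 9 receptors past the filter kept their direction and their side of the threshold in all 17 alternatives, and *Cd40lg* did in the 15 that gave it a value. *Icos* was the closest to the threshold, with a log2 fold change between 0.07 and 0.12 and an adjusted p (limma) of at most 0.0361, and *Cd226* ranged from -0.49 to -0.40. Without a filter on low values, 2 receptors instead of 1 fell, because *Cd40lg* was then tested. The median log2 change of all genes stayed between -0.05 and 0.01 under rescaling, and higher genes were 42.2% to 51.6% of those called, against 46.7% as reported.

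Same-numbered libraries did not deviate together (correlations of -0.12 to 0.10). A pairing that moved the values little would not be seen this way, so whether the replicate numbers pair the samples stays unknown. The replicate block changed no call on a receptor. Under sign flips of same-numbered differences, where the block allows no p below 0.125, the ratios of *Cd28* to *Ctla4* (2.37), *Cd226* to *Cd96* (-0.26) and *Icos* to *Cd28* (-0.42) gave that p. With the block, *Tnfsf4* was called (adjusted p = 0.0151, limma), also with quantile normalization (0.0173), and *Cd70* was not (0.0607).

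With 1 library left out, the *Cd226* to *Tigit* difference ranged from 0.28 to 0.37 and passed the test without DADA replicate 2. Near 0, *Icosl* (-0.00198) and *Cd40* (-0.00992) changed sign with quantile normalization, and *Pvrig* without Ctrl replicate 2 (0.0143) or DADA replicate 3 or 4 (0.000728), with a range of -0.0359 to 0.0143 when 1 library was left out, none of them called. A pseudocount of 0.1 moved *Tnfrsf23* from 1.11 to 2.18 and *Ceacam15* from -0.45 to -0.83. FPKM values carry no counts, so counting error could not be modelled, and at the estimated depth a level such as that of *Cd40lg* rests on a few fragments.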

Other observations

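Of the 18 other TNF receptor superfamily genes, 11 passed the filter. Among those below it, 2 had groups that did not overlap, chosen here after their values were seen. Over all genes tested, which passed the filter, the groups did not overlap for 60.6%. *Tnfrsf13c*, the BAFF receptor, was at 0.436, 0.550, 0.571 and 0.220 FPKM under DMSO and at 0.794, 0.903, 0.788 and 1.11 FPKM under DADA, which the fit without a filter put at a log2 change of 0.40 (limma, adjusted p = 0.00618). *Tnfrsf11a*, which encodes RANK, was at 0.0992, 0.230, 0.116 and 0.205 FPKM under DMSO and at 0.0452, 0.0752, 0.0534 and 0 FPKM under DADA (-0.15, limma, adjusted p = 0.0136). The values of *Tnfrsf11a* were as low as those of *Cd40lg*, and the size of such a change depends on the pseudocount.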
